A study of Mus musculus with 6 samples.

Results

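Complex I, or NADH:ubiquinone oxidoreductase, is the mitochondrial enzyme that takes electrons from NADH and starts respiratory electron transport. Its nuclear genes were taken as every protein-coding mouse gene whose symbol starts with Nduf. Ndufa4, now counted as a subunit of cytochrome c oxidase, and Ndufa4l2, its relative, were left out. The rule gave 46 of the 23886 gene identifiers measured: 38 subunits and 8 assembly factors, which carry Ndufaf symbols. Of the subunits, 10 were placed in the N module, 6 in the Q module and 20 in the P module. Ndufab1 belongs to both the N and the P module, and Ndufb4c is a further copy of a P module gene. For 44 of the 46 genes the GENCODE M21 annotation gives a protein-coding type. Ndufb1 and Ndufb4c are protein-coding in RefSeq and noncoding in GENCODE M21, where Ndufb1 is listed as Ndufb1-ps.

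RNA was measured in wild-type AML12 cells, a hepatocyte line from a mouse that carried a human transforming growth factor alpha transgene. The 3 control libraries (Control 2, 3 and 4) came from cells with no treatment, and the 3 SMF libraries (SMF 1, 2 and 3) from cells kept in a static magnetic field, which is constant in time. The sources used here give neither the strength of the field nor the duration of exposure. The series title names liver injury, calcium influx and cellular respiration, and the comparison asks whether transcripts of the first respiratory complex differ between exposed and unexposed cells. AML12 is 1 immortalised line, and nothing in the labels says that the 3 libraries of a group came from separate cultures. The p-values therefore measure only the spread between these libraries, which may be technical.

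The complex is shaped like a boot, with an arm that reaches into the matrix and an arm buried in the inner membrane. The N module, at the tip of the matrix arm, oxidises NADH on a flavin and passes the electrons along a chain of iron-sulfur clusters. The Q module, at the base of that arm, hands the electrons to ubiquinone. The P module, in the membrane, moves protons out of the matrix, and its core is encoded by mitochondrial DNA. The accessory subunits surround the core, and assembly factors help to build the complex and are absent from the finished enzyme. Hepatocytes rely on this enzyme to reoxidise the NADH made by fatty acid and amino acid breakdown. The roles given here are known largely from human and bovine mitochondria.

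Expression is given as FPKM, a unit scaled to gene length and library depth, as deposited. Read totals recovered from these values ran from 15514530 to 18200516 per library (SMF 1 lowest, Control 3 highest), and the groups overlapped in them. They are the totals behind the FPKM, not counts of sequenced reads. Each tested complex I gene held between 59 and 5131 recovered reads in a library, with a median of 995. Of 8 hepatocyte markers, 6 reached 1 FPKM in at least 3 libraries, among them Krt8, Krt18, Hnf4a and Alb. The secreted proteins Apoa1 and Serpina1a stayed below 1 FPKM in all 6 libraries. The bile duct keratin Krt19 stood at 1024 to 1163 FPKM. The sum of 3 bile duct markers was 1123 to 1147 FPKM in controls and 1094 to 1236 in SMF libraries. The summed fibroblast markers (4 genes) and endothelial markers (2 genes) stayed at or below 1.18 FPKM in every library, with Col1a2 and Dcn at 0. The sum of 2 leukocyte markers was 2.05 to 3.10 FPKM in controls and 2.17 to 2.46 in SMF libraries. In bulk RNA, a different share of cells in some state and a different amount of RNA per cell cannot be told apart.

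Some promoters of complex I genes hold motifs of factors known for respiratory chain genes. RefSeq promoter windows on build GRCm38.p6, from 250 bases before to 50 bases after each start, were matched for 40 of the 46 genes. The motif of nuclear respiratory factor 1 (NRF1) lay in 9 of the 40 (22.5%), against 5.19% of 27025 genes with a window. The motif of the zinc finger factor YY1 lay in 5 of the 40 (12.5%), against 0.995% of genes. The SP1 motif GGGCGG lay in 21 of 40 (52.5%), against 38.2% of genes, and the ETS family motif CCGGAAGT in 1 of 40 (2.5%), against 4.31%. The NRF1 motif was searched with 1 base left free and the others as exact letters, all on both strands. Each was counted on its own, and overlap between motifs was not scored. The windows below are shown because they hold these motifs in genes from the N, Q and P modules and the assembly factors, with the motif in capitals and the gene's own strand read 5′ to 3′.
Ndufs6 NRF1, chr13:73328479-73328508, - strand: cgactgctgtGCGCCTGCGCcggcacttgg
Ndufa8 NRF1, chr2:36049349-36049378, - strand: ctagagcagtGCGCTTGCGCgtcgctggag
Ndufa11 NRF1, chr17:56717692-56717721, + strand: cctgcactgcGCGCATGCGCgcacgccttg
Ndufs5 NRF1, chr4:123718265-123718294, - strand: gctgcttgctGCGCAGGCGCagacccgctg
Ndufa5 NRF1, chr6:24527697-24527726, - strand: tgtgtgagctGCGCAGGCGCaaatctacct
Ndufb4 NRF1, chr16:37654371-37654400, - strand: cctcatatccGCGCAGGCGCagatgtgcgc
Ndufs6 YY1, chr13:73328433-73328459, - strand: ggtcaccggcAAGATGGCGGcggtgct
Ndufs7 YY1, chr10:80249463-80249492, + strand: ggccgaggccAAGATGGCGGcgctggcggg
Ndufaf8 YY1, chr11:120098934-120098963, + strand: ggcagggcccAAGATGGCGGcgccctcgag
Counted from the start at position 1, with upstream positions negative and no position 0, the NRF1 motif began at -16 in Ndufs6, -30 in Ndufa8, -60 in Ndufa11, -98 in Ndufs5 and -190 in Ndufa5. Ndufb4 held 3 NRF1 motifs in its window, and the one shown begins at -22. All 3 YY1 motifs printed lay after the start, at 34 in Ndufs6, 25 in Ndufs7 and 11 in Ndufaf8. A match of letters is not a measured binding site.

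Transcripts of most nuclear complex I subunits stood higher in the SMF libraries by a small amount, with no single gene past the adjusted threshold. Of 45 genes that passed the filter of at least 1 FPKM in at least 3 libraries, 37 had a difference above 0. Ndufb4c, at 0 to 0.154 FPKM, was not tested. The difference is the mean of log2(FPKM + 1) in SMF libraries minus that in controls, a scale that understates changes of low genes. Among the 37 tested subunits 32 were above 0, with a median of 0.15, and among the 8 assembly factors 5 were above 0, with a median of 0.081. Over all 11114 genes tested, 46.7% were above 0 and the median was -0.0095. On the plain FPKM scale the median ratio of SMF to control means was 1.11 over the tested subunits, with a range from 0.792 to 1.28.

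By limma with Benjamini-Hochberg adjustment over all genes, 0 of the 45 complex I genes and 0 of 11114 genes (0%) passed 0.05. At an unadjusted p below 0.05, limma counted 1998 genes, 1046 of them higher in SMF. There, 22 of 37 subunits (59.5%) and 1 of 8 assembly factors (12.5%) were higher, against 9.41% of all genes, so the share of assembly factors was near the background. No complex I gene was lower, against 8.57%. All 3 SMF libraries lay above all 3 controls for 20 of 37 subunits (54.1%) and 1 of 8 assembly factors, against 11% of all genes. All 3 lay below for 1 gene, the assembly factor Ndufaf5, against 12.7% of all genes. A further test, limma-voom on reads recovered from the FPKM, called 477 of 10815 genes and 8 complex I genes, all higher in SMF. The genes of the complex share libraries and can vary together, so they are not independent replicates of the comparison.

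**Figure D1:**
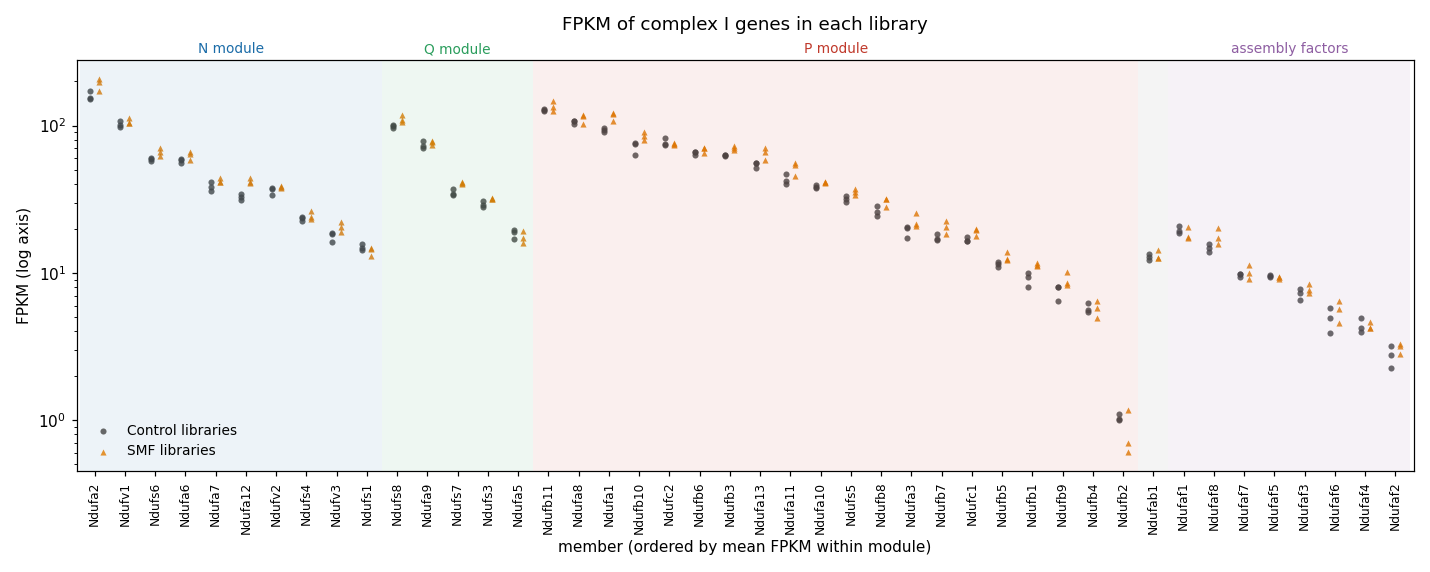
FPKM of 44 of the tested genes on a log axis, with 1 point per library, gray circles for Control and orange triangles for SMF, ordered by mean FPKM within each module. Levels run from about 1 FPKM for Ndufb2 to 208 FPKM for Ndufa2 in SMF 1, and assembly factors sit below most subunits.

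Levels differed widely between genes even though each complex holds a fixed number of each subunit. In FPKM, which is scaled by length, 15 of the 37 tested subunits had a mean of at least 50 and 3 a mean below 10, and 27 of them stood above the highest assembly factor, Ndufaf1. The deposited FPKM match a length that sums all annotated exons of a gene, so a gene with long exons used by few of its transcripts would be listed low. Ndufs1 (8086 bases), Ndufab1 (6883 bases), Ndufb2 (5628 bases), Ndufb5 (4995 bases) and Ndufb7 (4522 bases) have long summed exons. The place of these genes in the order of levels is uncertain. Summed over the subunits, FPKM were 1787, 1849 and 1780 in Control 2, 3 and 4 and 2094, 1896 and 2016 in SMF 1, 2 and 3. Every SMF sum was above every control sum, with SMF 2 nearest to the controls. The 46 genes took 0.291 ± 0.00488% of the recovered read totals in controls, against 0.316 ± 0.0122% in SMF libraries (SD, n = 3 each).

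Short genes and genes rich in G and C were higher in the SMF libraries throughout the data, and most complex I subunits are short. Median exon length was 1569 bases over the tested subunits and 4209 bases over all genes tested. Across genes, which are not independent replicates, Spearman's rho of the difference with exon length was -0.36 over 11055 genes and -0.39 over the 45 complex I genes. With GC content it was 0.49 and 0.46. Differences are therefore also given after a correction that removes, within each library, a smooth trend in GC content and length (a corrected difference). With the correction 27 of 37 subunits were above 0, with a median of 0.11, and 6 of 8 assembly factors, with a median of 0.095. The corrected median of all genes was -0.00021. All 3 SMF libraries then lay above all controls for 12 subunits (32.4%), against 9.57% of all genes. At an unadjusted p below 0.05, 11 subunits (29.7%) were higher, against 6.68%, and limma called 0 genes, with 1399 at an unadjusted p below 0.05. At that unadjusted p 2 subunits were lower with the correction, Ndufa5 (-0.15) and Ndufc2 (-0.12), against 5.98% of all genes. For Ndufc2 all SMF libraries then lay below all controls, against 8.95% of all genes. Taken as group means, the differences moved with length and GC content, though not evenly across libraries. The part of length and GC content in the differences as deposited was not tested beyond this correction.

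**Figure D2:**
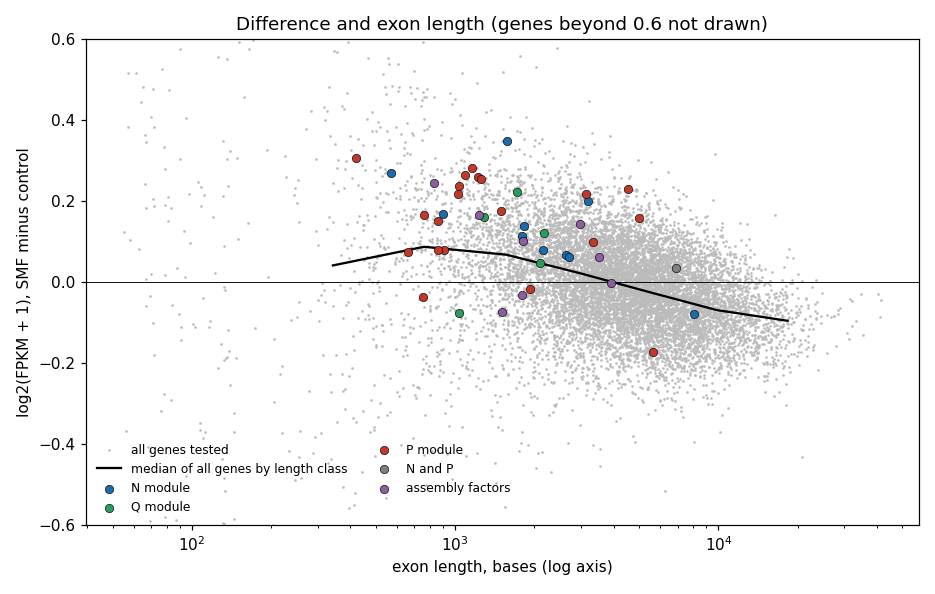
Difference between SMF and control libraries against exon length (log axis), with all genes tested in gray, the median by length class as a black line and 44 complex I genes coloured by module. Most complex I genes lie at the short end, where the line is above 0, and 28 of them are 2000 bases or shorter.

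In the 3 length classes with at least 10 complex I genes, the median of those genes was above that of all genes of the class. Among genes over 1000 and up to 2000 bases the median difference was 0.17 for 18 complex I genes and 0.067 for 1228 genes. Up to 1000 bases the medians were 0.16 for 10 complex I genes and 0.082 for 791 genes, and over 2000 and up to 4000 bases 0.073 for 12 and 0.021 for 3215. These medians are descriptions and were not tested.

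The N module had 9 of 10 genes above 0, with a median of 0.13 (0.11 with the correction). All SMF libraries lay above all controls for 5 of them, against 11% of all genes. With the correction only Ndufa12 and Ndufv3 kept this pattern, against 9.57% of all genes. Overlap of single genes is given as deposited here and below unless stated. Ndufa12 (ENSMUSG00000020022), an accessory subunit added late in assembly of the matrix arm, had the smallest p of the complex. It was at 32.7, 34.4 and 31.2 FPKM in Control 2, 3 and 4 and at 44.2, 41.2 and 40.6 FPKM in SMF 1, 2 and 3. The lowest SMF library was well above the highest control. The means were 32.8 ± 1.57 FPKM for controls against 42.0 ± 1.90 FPKM for SMF (SD, n = 3 each), a difference of 0.35 ± 0.050 (SE). Its adjusted p by limma was 0.103, a value that 13 genes shared, and its corrected difference was 0.29. Ndufa2 (ENSMUSG00000014294), an accessory subunit with a thioredoxin-like fold, had the highest FPKM of the complex and was at 152, 172 and 153 FPKM in Control 2, 3 and 4 and at 208, 171 and 197 FPKM in SMF 1, 2 and 3. SMF 2 lay just under Control 3, so the groups overlapped, and the difference of 0.27 ± 0.076 had a limma adjusted p of 0.171 and went to 0.14 with the correction. Ndufa2 shares 11.5% of its exon bases with Tmco6 on the opposite strand. In all, 19 of the 46 complex I genes share exon bases with another gene.

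Ndufs6 (ENSMUSG00000021606), a zinc-binding subunit between the N and Q modules, holds both the NRF1 and the YY1 motif printed above. It was at 57.1, 59.6 and 60.3 FPKM in Control 2, 3 and 4 and at 71.0, 62.1 and 66.4 FPKM in SMF 1, 2 and 3. Each SMF library was above each control, by a difference of 0.17 ± 0.052 (limma adjusted p = 0.188, corrected difference 0.090). Ndufv1 (ENSMUSG00000037916), the core subunit that binds NADH and the flavin, was at 97.8, 107 and 101 FPKM in Control 2, 3 and 4 and at 112, 104 and 104 FPKM in SMF 1, 2 and 3. Its groups overlapped, and the difference of 0.065 ± 0.047 (limma adjusted p = 0.485) went to -0.0049 with the correction. As deposited, Ndufs1 (-0.079), the large subunit that carries most iron-sulfur clusters of the module, was the only N module gene below 0. With the correction Ndufs1 was at -0.0024. Ndufs1 is also the longest gene of the complex, with 8086 bases. The other 5 genes, Ndufv3, Ndufa7, Ndufa6, Ndufv2 and Ndufs4, had differences of 0.062 to 0.20, and Ndufv3, Ndufa7 and Ndufv2 did not overlap between groups.

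**Figure D3:**
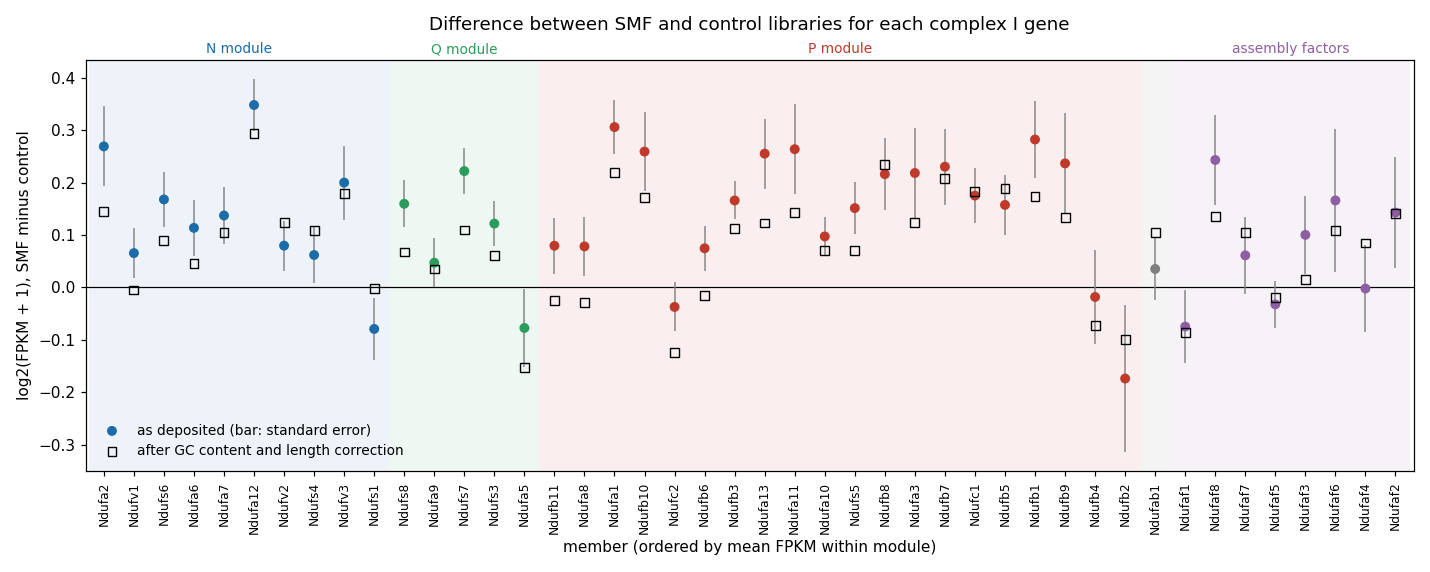
Difference of log2(FPKM + 1), SMF minus control, for 44 of the tested genes, with filled points as deposited, bars for the standard error of limma and open squares with the GC content and length correction. As deposited 36 of 44 points lie above 0, and the squares of most subunits lie closer to 0.

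The Q module, where ubiquinone is reduced, had 5 of 6 genes above 0, with a median of 0.084 (0.048 with the correction, where 4 of 6 were above 0). Its 3 genes without overlap (against 11% of all genes with SMF above), Ndufs7, Ndufs8 and Ndufs3, all encode core subunits. With the correction Ndufs3 overlapped too. Ndufs7 (ENSMUSG00000020153), which holds the last iron-sulfur cluster before ubiquinone and has the YY1 motif printed above, was at 33.6, 36.9 and 34.3 FPKM in Control 2, 3 and 4 and at 41.7, 40.2 and 40.8 FPKM in SMF 1, 2 and 3. Its 3 SMF libraries were close to each other and above every control. The means were 35.0 ± 1.75 FPKM for controls against 40.9 ± 0.785 FPKM for SMF (SD, n = 3 each), and the difference was 0.22 ± 0.045 (limma adjusted p = 0.147, corrected difference 0.11). Ndufs8 (ENSMUSG00000059734), which carries a pair of iron-sulfur clusters upstream of Ndufs7, was at 96.9, 102 and 99.1 FPKM in Control 2, 3 and 4 and at 118, 106 and 109 FPKM in SMF 1, 2 and 3. All SMF libraries were above all controls, with SMF 1 highest. The difference was 0.16 ± 0.045 (limma adjusted p = 0.171), or 0.068 with the correction.

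Ndufs3 (ENSMUSG00000005510), a core subunit without a cofactor and an early scaffold of the module, was at 28.8, 30.6 and 27.9 FPKM in Control 2, 3 and 4 and at 32.0, 31.7 and 31.5 FPKM in SMF 1, 2 and 3. Each SMF library was above each control, with Control 3 nearest, and the difference was 0.12 ± 0.044 (limma adjusted p = 0.219, corrected difference 0.061). Ndufa9, an accessory subunit near the ubiquinone site, differed by 0.047 and Ndufa5, an accessory subunit at the base of the arm with an NRF1 motif printed above, by -0.077 (-0.15 with the correction). Both overlapped between groups.

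The P module had 17 of 20 genes above 0, with a median of 0.17 (0.12 with the correction, where 14 were above 0). All SMF libraries lay above all controls for 12 genes, against 11% of all genes. With the correction this held for 8, against 9.57% of all genes, and Ndufa13, Ndufs5, Ndufa3 and Ndufb9 then overlapped. Ndufa1 (ENSMUSG00000016427), a small membrane subunit encoded on the X chromosome and needed early in assembly of the membrane arm, was at 96.6, 93.5 and 90.9 FPKM in Control 2, 3 and 4 and at 121, 108 and 119.8 FPKM in SMF 1, 2 and 3. All SMF libraries were above all controls. The means were 93.7 ± 2.83 FPKM for controls against 116 ± 7.44 FPKM for SMF (SD, n = 3 each), with a difference of 0.31 ± 0.051 (limma adjusted p = 0.111, corrected difference 0.22). Ndufb3 (ENSMUSG00000026032), a membrane subunit of the distal arm, was at 63.5, 62.9 and 61.9 FPKM in Control 2, 3 and 4 and at 72.8, 68.5 and 70.2 FPKM in SMF 1, 2 and 3. The 3 controls were close to each other and below every SMF library. Its difference was 0.17 ± 0.036 (limma adjusted p = 0.148), or 0.11 with the correction. Ndufb1 (ENSMUSG00000113902), among the smallest subunits of the complex, was at 9.40, 10.01 and 8.05 FPKM in Control 2, 3 and 4 and at 11.2, 11.1 and 11.6 FPKM in SMF 1, 2 and 3. The groups did not overlap, with a difference of 0.28 ± 0.073 (limma adjusted p = 0.164, corrected difference 0.17). Ndufb1 shares 12.7% of its exon bases with Cpsf2 on the opposite strand.

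The 2 most abundant genes of the P module overlapped between groups. Ndufb11 (ENSMUSG00000031059), a membrane subunit also encoded on the X chromosome, was at 125, 129.9 and 128 FPKM in Control 2, 3 and 4 and at 147, 127 and 133 FPKM in SMF 1, 2 and 3. SMF 2 lay between the controls, and the difference of 0.079 ± 0.054 (limma adjusted p = 0.453) turned to -0.025 with the correction. Ndufb11 shares 12.9% of its exon bases with Rbm10 on the opposite strand. Ndufa8 (ENSMUSG00000026895), a cysteine-rich subunit on the intermembrane side with the NRF1 motif printed above, was at 103, 107 and 108 FPKM in Control 2, 3 and 4 and at 117, 102 and 117 FPKM in SMF 1, 2 and 3. SMF 2 was the lowest of the 6 libraries. Its difference of 0.078 ± 0.056 (limma adjusted p = 0.484) also turned, to -0.028. The 3 genes below 0 as deposited were Ndufc2 (-0.037), Ndufb4 (-0.018) and Ndufb2 (-0.17), each with overlap. Their corrected differences were -0.12, -0.072 and -0.0996. Ndufb2 stood at 0.607 to 1.17 FPKM, near the filter. Ndufb4, whose NRF1 motif is printed above, has near-identical copies in the mouse genome, so its reads may be split between them.

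A further 4 genes of the P module are described because limma-voom called them, so they were picked with their values known. Ndufa13, also known as Grim19, a subunit that spans the junction of the arms, was at 51.8, 55.7 and 56.0 FPKM in Control 2, 3 and 4 and at 70.6, 58.8 and 66.7 FPKM in SMF 1, 2 and 3. It did not overlap between groups, and its difference was 0.26 ± 0.067 (0.12 with the correction), although 29.98% of its exon bases are shared with Tssk6 on the opposite strand. Ndufb10, a cysteine-rich subunit on the intermembrane side, was at 75.8, 74.7 and 63.3 FPKM in Control 2, 3 and 4 and at 91.2, 79.7 and 85.1 FPKM in SMF 1, 2 and 3. Control 4 was the lowest library, the groups did not overlap, and the difference was 0.26 ± 0.075 (corrected 0.17). Ndufb7, of the same cysteine-rich kind, was at 16.9, 18.3 and 16.7 FPKM in Control 2, 3 and 4 and at 22.5, 18.4 and 20.6 FPKM in SMF 1, 2 and 3. SMF 2 was barely above Control 3, and the difference was 0.23 ± 0.072 (corrected 0.21). Ndufb8, a membrane subunit often blotted as a marker of the assembled complex, was at 25.9, 28.4 and 24.3 FPKM in Control 2, 3 and 4 and at 31.9, 28.1 and 31.8 FPKM in SMF 1, 2 and 3. SMF 2 lay below Control 3, and the difference was 0.22 ± 0.069 (corrected 0.23). The remaining 8 genes of the module, Ndufa3, Ndufa10, Ndufa11, Ndufb5, Ndufb6, Ndufb9, Ndufc1 and Ndufs5, had differences of 0.075 to 0.26, and all but Ndufa11 and Ndufb6 were without overlap. Ndufa11 and Ndufs5, each with an NRF1 motif printed above, differed by 0.26 and 0.15. Ndufb6 shares 39.0% of its exon bases with Smim27 and Ndufb5 12.3% with Mrpl47, both on the opposite strand. Ndufb9 shares 19.5% of its exon bases with Gm49356 on the same strand. Ndufab1, the mitochondrial acyl carrier protein that is bound in both arms and also serves fatty acid and lipoate synthesis, differed by 0.035 ± 0.059 with overlap (corrected 0.11).

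Assembly factors stood at lower FPKM than most subunits, and 5 of 8 were above 0. Their summed FPKM were 71.4, 73.4 and 73.1 in Control 2, 3 and 4 and 79.8, 75.6 and 73.9 in SMF 1, 2 and 3. The SMF sums were all above the controls, SMF 3 by little. Ndufaf8 (ENSMUSG00000078572), a partner of Ndufaf5 with the YY1 motif printed above, was at 14.7, 15.6 and 13.8 FPKM in Control 2, 3 and 4 and at 20.1, 17.2 and 15.6 FPKM in SMF 1, 2 and 3. SMF 3 came close to Control 3 but did not overlap it. The difference was 0.24 ± 0.087 (limma adjusted p = 0.218, corrected 0.13 with overlap). Ndufaf5 (ENSMUSG00000027384), an enzyme that modifies Ndufs7, was at 9.53, 9.61 and 9.42 FPKM in Control 2, 3 and 4 and at 9.37, 9.41 and 9.08 FPKM in SMF 1, 2 and 3. As deposited it was the only complex I gene with every SMF library below every control, against 12.7% of all genes. With the correction its groups overlapped. The difference was small, -0.032 ± 0.045 (limma adjusted p = 0.723, corrected -0.019). Whether the 2 partners differ from each other in their response was not tested.

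Ndufaf2 (ENSMUSG00000068184), a paralogue of Ndufa12 that holds its place during assembly, was at 2.25, 2.77 and 3.19 FPKM in Control 2, 3 and 4 and at 3.31, 3.19 and 2.82 FPKM in SMF 1, 2 and 3. The groups overlapped, with a difference of 0.14 ± 0.11 (limma adjusted p = 0.499). Of its exon bases 65.6% are shared with B230220B15Rik on the opposite strand, so its reads cannot be told apart from those of that gene. Ndufaf3 (ENSMUSG00000070283), which acts with Ndufaf4 on the Q module, was at 7.83, 6.54 and 7.31 FPKM in Control 2, 3 and 4 and at 7.67, 7.33 and 8.43 FPKM in SMF 1, 2 and 3. It overlapped between groups and differed by 0.10 ± 0.075 (limma adjusted p = 0.501, corrected 0.016). Ndufaf1 (ENSMUSG00000027305), which helps to build the membrane arm, had the highest FPKM of these factors and was at 18.5, 19.4 and 20.7 FPKM in Control 2, 3 and 4 and at 17.6, 20.5 and 17.4 FPKM in SMF 1, 2 and 3. SMF 1 and SMF 3 were below every control and SMF 2 was not, with a difference of -0.075 ± 0.070 (limma adjusted p = 0.594, corrected -0.085). Ndufaf4, Ndufaf6 and Ndufaf7, the last a methyltransferase, had differences of -0.0021 to 0.17 with overlap. The difference between subunits and assembly factors was not tested.

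The SMF libraries did not all differ from the controls to the same extent. A score was taken per library as the mean over genes of log2(FPKM + 1) relative to the mean of the 6 libraries. Over the 37 subunits it was -0.074, -0.037 and -0.089 in Control 2, 3 and 4 and 0.12, -0.0048 and 0.082 in SMF 1, 2 and 3. SMF 1 was the highest library for 28 of 45 genes, and SMF 2 was the lowest SMF library for 30 of 45. Of the 37 subunits, 31 in SMF 1, 30 in SMF 3 and 21 in SMF 2 were above every control. These counts per library were not taken over all genes, so whether they are particular to complex I is not known. With the correction the subunit scores were -0.067, -0.0082 and -0.050 for the controls, against 0.082, -0.011 and 0.053 for SMF, which put SMF 2 within the control range. The correction moved the subunit score least in SMF 2 and Control 2. By module, corrected scores still separated the groups in the N module, where SMF 2 was at 0.0060 and Control 3 at -0.0096. They also did so in the assembly factors, where SMF 2 was at -0.0021 and Control 3 at -0.0069. In the P module SMF 2 was at -0.023, under Control 3 at -0.0045. In the Q module Control 4, at 0.027, was the highest of the 6. The scores are a description without a test.

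**Figure D4:**
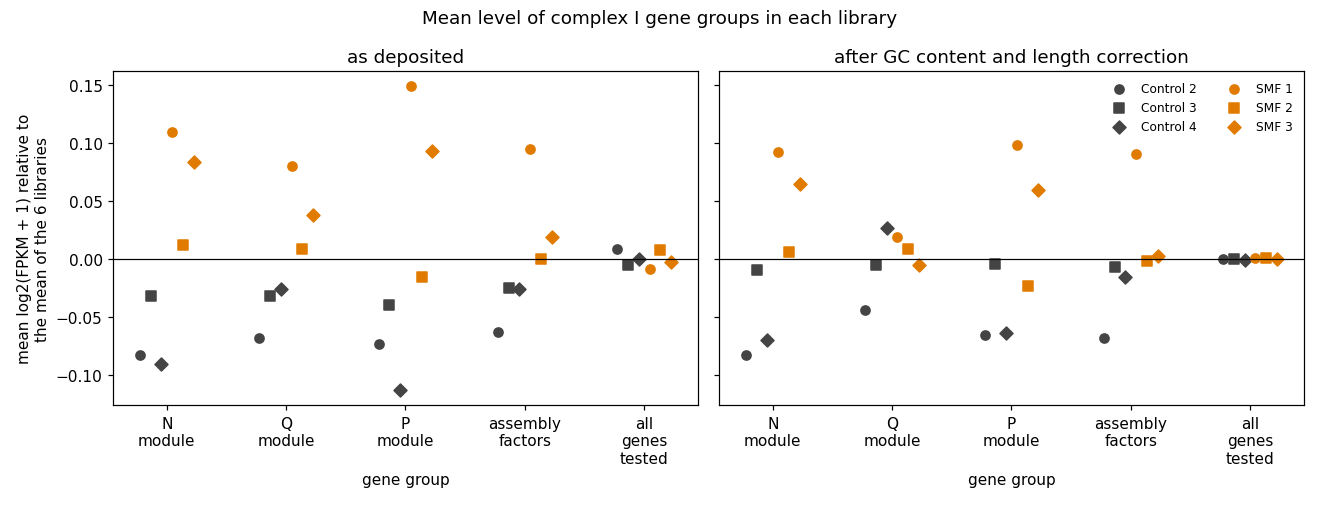
Mean log2(FPKM + 1) of each gene group in each library, relative to the mean of the 6 libraries, as deposited on the left and with the GC content and length correction on the right; shapes mark libraries. On the left every SMF library lies above every control in each complex I group, and on the right the Q and P modules overlap.

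Read-based testing with limma-voom called 8 complex I genes at adjusted p of 0.00487 to 0.0439, against 2.08% of all 10815 genes called higher and 2.33% called lower. These were Ndufa12 and Ndufa2 in the N module, Ndufs7 in the Q module and Ndufa1, Ndufa13, Ndufb10, Ndufb7 and Ndufb8 in the P module. Their log2 differences in that fit were 0.22 to 0.35, and all 8 rose by this test. Corrected for GC content and length, the same test called 83 genes, 0.536% of genes as higher, and Ndufa12 was the only complex I gene among them (adjusted p = 0.0206). The other 7 then had adjusted p of 0.0595 to 0.696. Calls changed with single libraries, in complex I as over all 10815 genes. The uncorrected test called 13 complex I genes without SMF 2, 9 without Control 3 and 3 without Control 2. Over all genes it called 1402, 419 and 224 in the same order. It called only Ndufa12 without SMF 1 and without SMF 3, against 50 and 75 of all genes. Without Control 4 it called no complex I gene and 4 of all genes. There Ndufa12 had an adjusted p of 0.0802, and 1546 genes had an unadjusted p below 0.05. With limma and a filter at 5 FPKM, 8 of 7482 genes were called (0.107%), among them Ndufa12 at an adjusted p of 0.0417.

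Differences are given here beside the promoter motifs printed above. The 9 genes with an NRF1 motif had a median difference of 0.078, with 5 of 9 above 0, and the 31 without had a median of 0.14, with 28 above 0. Their corrected medians were 0.046 and 0.11. The 5 genes with a YY1 motif, Ndufs6, Ndufs7, Ndufaf8, Ndufa9 and Ndufs4, were all above 0 with a median of 0.17, against 0.12 for 35 genes without. With the correction these medians were 0.108 and 0.105. These differences between sets were not tested. Among transcription factors and coactivators named for respiratory chain genes, 8 of 10 were tested, 0 were called by limma and 2 were above 0, with a median of -0.061. With the correction the direction turned, with 5 of 8 above 0 and a median of 0.014. Esrra, an orphan nuclear receptor, was at 26.4, 30.1 and 28.4 FPKM in Control 2, 3 and 4 and at 34.5, 30.3 and 33.5 FPKM in SMF 1, 2 and 3. Its groups did not overlap, and its difference was 0.21 ± 0.063 (limma adjusted p = 0.188). Pprc1, a coactivator of the PGC-1 family, was at 27.3, 28.6 and 28.1 FPKM in Control 2, 3 and 4 and at 27.1, 26.8 and 25.5 FPKM in SMF 1, 2 and 3. All SMF libraries were below all controls, with a difference of -0.079 ± 0.041 (limma adjusted p = 0.349). Nrf1, the factor whose motif is printed above, had means of 5.02 ± 0.112 FPKM for controls against 5.62 ± 0.221 FPKM for SMF (SD, n = 3 each) without overlap and a limma adjusted p of 0.261. Yy1, Sp1 and Gabpa, factors of the other motifs searched, differed by -0.0021, -0.12 and -0.077, each with overlap. Their corrected differences were 0.016, -0.033 and 0.012. Ppargc1a, which encodes PGC-1 alpha, and Ppargc1b stayed below the filter.

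Further genes act on the assembly of complex I or encode its core. Of 14 assembly factors with other names, 9 were above 0, with a median of 0.014 (0.0073 with the correction), and limma called 0 (Coa1 was not analysed here). Dmac1, a factor for the distal membrane arm, was at 28.9, 30.6 and 32.6 FPKM in Control 2, 3 and 4 and at 41.8, 33.0 and 37.2 FPKM in SMF 1, 2 and 3. Its groups did not overlap, with a difference of 0.27 ± 0.082 (limma adjusted p = 0.186). Aifm1, an oxidoreductase that tethers the import receptor Chchd4, had means of 31.4 ± 1.73 FPKM for controls against 31.7 ± 1.38 FPKM for SMF (SD, n = 3 each), which overlapped. Subunits encoded by mitochondrial DNA form the proton-pumping core, and of 5 tested 2 were above 0, with a median of -0.12 (-0.053 with the correction) and 0 called. The most abundant, mt-Nd1, was at 3535, 3148 and 3767 FPKM in Control 2, 3 and 4 and at 2982, 3243 and 3217 FPKM in SMF 1, 2 and 3. Its groups overlapped, with a difference of -0.14 ± 0.067 (limma adjusted p = 0.302), and mt-Nd2 differed by -0.12. The short mt-Nd3 and mt-Nd4l were at 0 to 0.800 FPKM and were not tested, while mt-Nd4 was at 421 to 506 FPKM. Whether the low values of mt-Nd3 and mt-Nd4l reflect transcript levels or the way reads were assigned was not tested.

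Electrons also reach ubiquinone by routes that bypass complex I. Of 6 tested genes of those routes 5 were above 0, with a median of 0.048 (0.074 with the correction), and limma called 0. Etfa, a subunit of the flavoprotein that takes electrons from fatty acid oxidation, had means of 66.0 ± 1.57 FPKM for controls against 66.9 ± 2.25 FPKM for SMF (SD, n = 3 each), which overlapped. Gpd2, the mitochondrial glycerol 3-phosphate dehydrogenase, was at 26.1, 26.1 and 27.3 FPKM in Control 2, 3 and 4 and at 23.4, 25.6 and 22.9 FPKM in SMF 1, 2 and 3. Every SMF library was below every control, with a difference of -0.14 ± 0.050 (limma adjusted p = 0.218, corrected -0.083).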

How the data were processed

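Poly(A) RNA of 3 control and 3 SMF libraries was isolated with TRIZOL, captured by oligo(dT) and turned into VAHTS Universal V6 libraries by random priming, per the labels' protocols. The labels mention no strand marking, so overlapping genes cannot be told apart. The deposited values are FPKM, calculated by the authors, 1 table per library. Per the submitters' processing notes the build was GRCm39, and Bowtie2 2.2.3 and HISAT2 2.1.0 were used in roles that are left unstated. The sources used here name no counting tool, annotation or treatment of multiply mapped reads, so genes with near-identical copies are uncertain.

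Symbols, exon lengths and GC content came from GENCODE M21 (build GRCm38), which named 23521 of 23886 identifiers, and no coordinates were taken from it. Promoter sequences are from RefSeq, build GRCm38.p6. Ndufb4b was not analysed here. Groups and replicate numbers came from the labels. The genes, modules and lists were chosen with earlier results of these data known. Genes with at least 1 FPKM in at least 3 of 6 libraries were tested on log2(FPKM + 1) with limma (version 3.58.1, under R 4.3.3) and its variance trend, two-sided, adjusted over all genes by the Benjamini-Hochberg method, with a threshold of 0.05. The library total was estimated from the FPKM, as the value at which FPKM times exon length and total came out whole. The result was whole reads, within 0.02, in every library for 98.1% of 21741 genes. For these genes limma-voom was run on the recovered reads as an alternative, and its corrected and left-out forms were added after seeing the data. Intervals are not given, and the spread between libraries is the error. The correction fitted a loess surface (span 0.3) on GC content and log length within each library, for the 99.5% of tested genes with both. The fitted quantity was each gene's log2(FPKM + 1) minus its mean over the 6 libraries, and the surface was then subtracted.

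Named genes were, within the N, Q and P modules and the assembly factors, the 3 with the smallest unadjusted p, the 2 with the highest mean FPKM and any lower in SMF without overlap, and the 2 of highest FPKM in each other list. Nrf1, Yy1, Sp1 and Gabpa were added because their motifs were searched. The values of 1 gene under this rule are not reported here, and it enters counts, sums and medians only. Other alternatives were pseudocounts of 0.1 and 5, other filters and scalings, a stricter threshold of 0.01, another module assignment, a replicate block and leaving out each library. The tests were tested on simulated data. Both groups have libraries numbered 2 and 3, and no label says that the numbers pair them. Python 3.11.15 and matplotlib 3.10.9 made the figures.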

Additional observations from a re-analysis of the deposited data

How the results depend on the processing

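Limma called 0 genes under pseudocounts of 0.1 and 5, no filter, quantile normalization, TPM, no variance trend, median-of-ratios scaling and the GC content and length correction. The medians of subunits, assembly factors and modules stayed above 0 under every alternative run. Over the named genes and alternatives, 395 differences kept their direction and side of the threshold, 20 kept their direction and passed it, and 9 reversed. A filter at 5 FPKM gave 8 called genes with 1 complex I gene. The Q module median was 0.052 after rescaling to TPM, 0.048 with the GC content and length correction and 0.12 with another module assignment. The limma-voom test gave 477 called genes with 8 complex I genes, and after the correction 83 with 1, where the medians were 0.072 for subunits, 0.042 for the Q module and 0.10 for the P module. A replicate block on the shared numbers 2 and 3 compared only SMF 2 with Control 2 and SMF 3 with Control 3. The remaining library of each group has a number that the other group lacks, so it added nothing to the blocked differences. With this block, limma called 19 genes and no complex I gene, and the assembly factor median was 0.029. With the block and the correction together it called 17 genes, and the medians were 0.082 for subunits, 0.025 for assembly factors, 0.080 for the N module, 0.050 for the Q module and 0.089 for the P module. Deviations of same-numbered libraries correlated at 0.058 (Control 2 and SMF 2) and 0.046 (Control 3 and SMF 3). Those of differently numbered libraries correlated at -0.071 (Control 2 and SMF 3) and -0.15 (Control 3 and SMF 2). These values do not settle whether the numbers mark pairs. The numbers were not taken as pairs because no label says so.

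Leaving out 1 library at a time, limma called 0 to 3 genes and 0 complex I genes, and the medians were 0.12 to 0.17 for subunits, 0.043 to 0.13 for assembly factors, 0.094 to 0.16 for the N module, 0.066 to 0.098 for the Q module and 0.14 to 0.20 for the P module. With limma-voom the calls ran from 4 genes (without Control 4) to 1402 (without SMF 2), with 0 to 13 complex I genes, and the assembly factor median from 0.049 to 0.15. With the correction, with the correction and block and by corrected limma-voom, in that order, Ndufv1 reversed to -0.0049, -0.019 and -0.014, Ndufb11 to -0.025, -0.048 and -0.069, and Ndufa8 to -0.028, -0.012 and -0.057. The cause was not tested. Depth limits the least expressed genes most, the fewest reads of a tested complex I gene in a library being 59.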
